A study of Mus musculus with 4 samples.

Results

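The genes described here are 35 genes of T cells and natural killer (NK) cells, read on 4 microarrays of mouse type 1 conventional dendritic cells (cDC1). They were chosen by gene symbol and comprise 24 T cell genes and 11 NK and cytotoxic genes. The 4 groups were XCR1-deficient (KO) and wild-type (WT) cells of the C57BL/6 strain, from mice aged 10 weeks, that had received lipopolysaccharide (LPS, 100 ng/ml), and KO and WT cells that had received LPS with recombinant mouse XCL1 (100 ng/ml), all in complete RPMI medium. LPS is a bacterial ligand of Toll-like receptor 4 that all 4 groups received, and XCL1 is the chemokine that binds XCR1. No group without LPS was part of the comparisons. With 1 array per group, every difference given here is between single arrays, without error or test. The sources used here do not give the allele behind XCR1 deficiency, the tissue of origin, how the cDC1 were purified or how long they were treated.

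T cells recognise antigen through a receptor that signals through the CD3 chains, and the kinases Lck and ZAP70 and the adaptor LAT pass that signal on. NK cells carry no such antigen receptor. They read the surface of other cells through activating and inhibitory receptors and kill with perforin and granzymes, as cytotoxic CD8 T cells do. cDC1 are not T or NK cells, but they work beside both. They present antigen to CD8 T cells, and XCL1 is made mainly by NK cells and activated CD8 T cells. Some of the 35 genes are also known outside T and NK cells, among them Il7r, Tbx21 and Cd4, which dendritic cells can express.

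A probe set with 1 gene symbol was found for 32 of the 35 genes, with 1 probe set each, among 17515 named genes. Cd247, Lck and Tcf7 had none and were not analysed here. Signals are log2 values, and a limit of 5.43, the median of all values on the 4 arrays, marks the dim genes. No detection calls were used, so the limit is not a measured background. On at least 1 array 27 members reached it, 18 T cell and 9 NK and cytotoxic genes, as did 11072 of all named genes. Ubash3a, Trat1, Ctla4, Klrb1c and Klre1 lay below it on all 4 arrays. Cd3d and Eomes reached it on WT arrays alone, so that passing the limit already favoured a KO signal below the WT signal for both. A probe set's signal also depends on its probes, so levels are compared between arrays and never between genes.

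The arrays resembled each other closely, with Pearson's r between 0.983 and 0.993 across genes, which are not independent replicates. Of 13 cDC1 markers, 11 were past the limit, with Irf8 at 10.0 to 10.2, Flt3 at 10.1 to 10.3 and Batf3 at 6.78 to 6.98 on the 4 arrays. The marker Itgae lay below it on all 4 arrays, and the probe set of Clec9a carries several symbols. The targeted gene Xcr1 had signals of 5.54 in KO and 6.42 in WT with LPS, and 5.11 in KO and 7.19 in WT with LPS and XCL1. Its signal was thus smaller on the arrays labelled KO in both pairs. The labels give all mice as female, yet Xist differed by -3.31 and -3.34 between KO and WT, with signals of 4.64 and 4.57 in KO and 7.95 and 7.91 in WT. The Y-linked genes Eif2s3y and Uty had signals of 8.27 to 8.89 on all 4 arrays. The array names in the labels begin with a different prefix for each genotype. Genotype, the sex of the cells and whatever those prefixes stand for cannot be told apart.

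The genotype comparison set XCR1-deficient cDC1 against wild-type cDC1, with LPS and again with LPS and XCL1. Most T cell genes had a smaller signal on the KO array, 17 of 18 with LPS and 16 of 18 with LPS and XCL1, where 60.1% and 56.8% of all genes did. With each array centred on its gene median these counts were 11 and 16 of 18, against 39.5% and 39.3% of all genes. Cd3g and Cd3e differed most. In what follows lower and higher stand for a difference of 1.5-fold or more, a log2 value of 0.585, and every difference is given as a log2 value. With LPS, Cd3g and Cd3e were lower and Il7r was higher among the 18 T cell genes past the limit. Of all 11072 genes, 1.00% were lower and 1.01% higher. With LPS and XCL1, Cd3e, Cd3g and Skap1 were lower and none was higher, where 1.79% of all genes were lower and 1.69% higher. No NK or cytotoxic gene past the limit reached 1.5-fold in either pair. In bulk RNA, fewer cells of a type and less RNA per cell cannot be told apart.

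**Figure D1:**
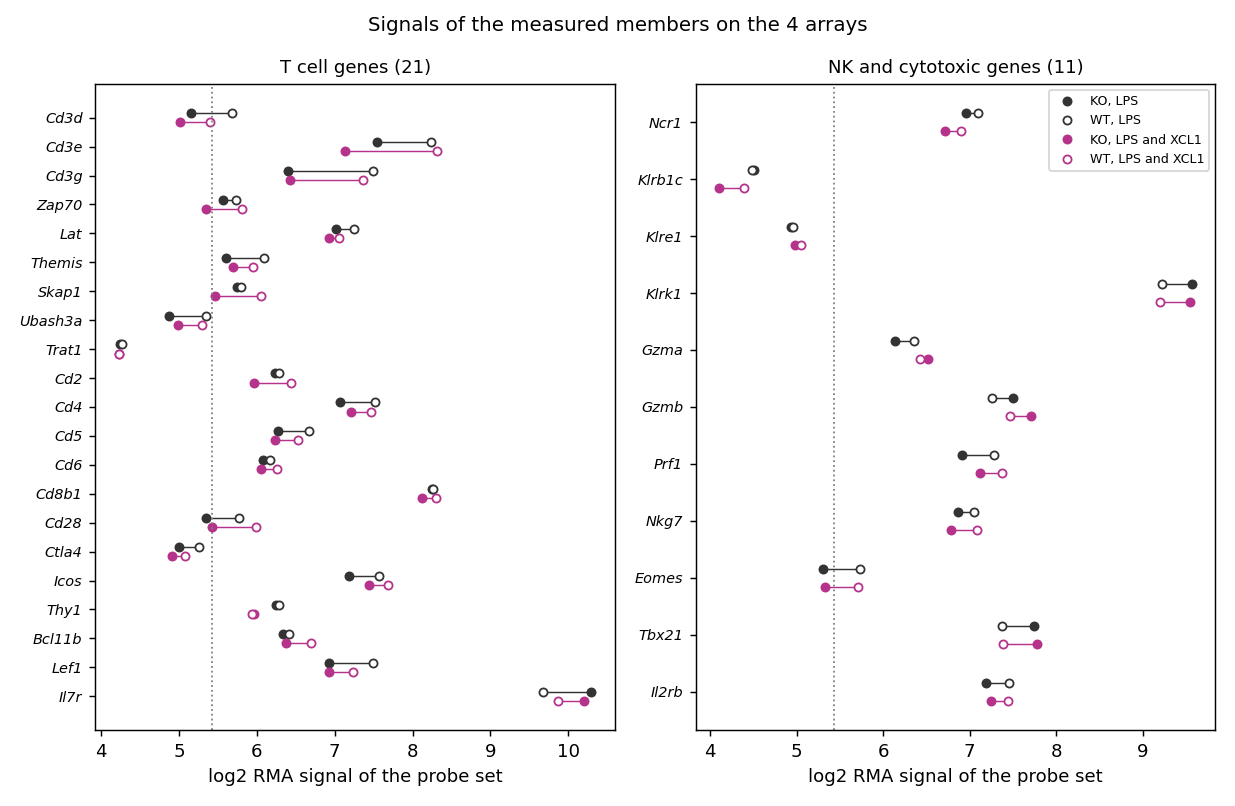
Each row is a measured gene, and the horizontal axis is its log2 RMA signal. Filled points are KO arrays and open points WT arrays, black with LPS and magenta with LPS and XCL1, a line joins the 2 arrays of a pair, and the dotted line is the signal limit of 5.43. Filled points lie left of open ones for Cd3e and Cd3g in both pairs and right of them for Il7r, Klrk1, Gzmb and Tbx21.

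The CD3 chains form the signalling part of the T cell receptor, and Cd3g, Cd3d and Cd3e lie close together on chromosome 9. Cd3g had signals of 6.40 in KO and 7.50 in WT with LPS, and 6.43 in KO and 7.37 in WT with LPS and XCL1. Both KO values were below both WT values. The signal was 2.14-fold lower in KO with LPS and 1.92-fold lower with LPS and XCL1, ranks 3 and 17 from the lowest difference among 11072 genes. Cd3e had signals of 7.55 in KO and 8.23 in WT with LPS, and 7.13 in KO and 8.32 in WT with LPS and XCL1. Its arrays were also separated by genotype, with Cd3e 1.61-fold lower in KO with LPS (rank 53) and 2.27-fold lower with LPS and XCL1 (rank 6). With each array centred on its gene median, Cd3e differed by -0.58 with LPS, just short of 1.5-fold. Cd3d had signals of 5.15 in KO and 5.69 in WT with LPS, and 5.02 in KO and 5.40 in WT with LPS and XCL1. Its differences of -0.54 and -0.38 did not reach 1.5-fold, and 3 of its 4 signals lay below the limit. With signals raised to the limit its difference was -0.26 with LPS and 0.00 with LPS and XCL1.

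The promoters of the 3 CD3 genes, of which Cd3g and Cd3e were lower, are shown with that of Il7r, which had the opposite sign. The sequences are from RefSeq on build GRCm38.p6 and run 5′ to 3′ on the gene's own strand from 250 bases before the gene's start to 50 after it. Of the 35 genes, 26 had a promoter in that table. The Cd3g sequence lies at chr9:44980382-44980681 on the minus strand, Cd3d at chr9:44981536-44981835 on the plus strand, Cd3e at chr9:45009562-45009861 on the minus strand and Il7r at chr15:9529827-9530126 on the minus strand. Capitals mark the letters of motifs searched on both strands.
Cd3g: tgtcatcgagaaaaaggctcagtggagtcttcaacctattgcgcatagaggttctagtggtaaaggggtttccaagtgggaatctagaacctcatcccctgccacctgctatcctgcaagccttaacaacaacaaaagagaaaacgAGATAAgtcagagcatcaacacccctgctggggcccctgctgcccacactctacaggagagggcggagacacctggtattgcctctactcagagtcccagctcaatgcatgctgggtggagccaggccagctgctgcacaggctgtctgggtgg
Cd3d: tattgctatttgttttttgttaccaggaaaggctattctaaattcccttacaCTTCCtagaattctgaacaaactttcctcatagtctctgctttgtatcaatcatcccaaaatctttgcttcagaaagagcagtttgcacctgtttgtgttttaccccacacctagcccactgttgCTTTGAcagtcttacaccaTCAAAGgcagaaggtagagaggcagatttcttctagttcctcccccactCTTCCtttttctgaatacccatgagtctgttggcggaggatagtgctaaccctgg
Cd3e: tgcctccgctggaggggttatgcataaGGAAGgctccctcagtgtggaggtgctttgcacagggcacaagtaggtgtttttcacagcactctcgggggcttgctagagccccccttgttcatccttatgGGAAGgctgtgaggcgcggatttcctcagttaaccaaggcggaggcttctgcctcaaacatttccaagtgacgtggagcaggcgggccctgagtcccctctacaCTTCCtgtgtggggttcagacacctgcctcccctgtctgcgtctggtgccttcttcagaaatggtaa
Il7r: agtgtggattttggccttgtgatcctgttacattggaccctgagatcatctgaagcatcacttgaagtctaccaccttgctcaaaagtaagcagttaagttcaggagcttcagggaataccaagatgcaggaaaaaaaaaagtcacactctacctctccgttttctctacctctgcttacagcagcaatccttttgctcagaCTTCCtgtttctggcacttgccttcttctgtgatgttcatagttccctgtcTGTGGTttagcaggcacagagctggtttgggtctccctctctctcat

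The motifs were TGTGGT for RUNX factors, GGAAG for ETS factors, AGATAA for GATA factors and CTTTGA for TCF and LEF factors, all families that act in T cell development. Hits of different motifs overlapped in 0 places in these sequences. The RUNX motif was in 0 of the 3 CD3 promoters and in 16.8% of all 32851 promoters, and the Il7r promoter held 1. The ETS motif was in 2 of the 3 CD3 promoters, with 2 hits in Cd3d and 3 in Cd3e, and in 71.4% of all promoters. The GATA motif was found in Cd3g alone of the CD3 genes, against 11.2% of all promoters, and the TCF and LEF motif in Cd3d alone, against 16.0%. A match here is a description of letters and not of a bound site.

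Genes that carry the T cell receptor signal had medians of -0.20 with LPS and -0.36 with LPS and XCL1, against -0.68 and -0.94 for the 3 CD3 chains. Skap1, an adaptor that links the receptor to integrins, had signals of 5.74 in KO and 5.80 in WT with LPS, and 5.46 in KO and 6.05 in WT with LPS and XCL1. Its genotypes were close with LPS (-0.06) and stood at the threshold with XCL1 added (-0.59), and the call ended with each array centred on its gene median (-0.49). Zap70, the kinase that binds phosphorylated CD3 chains, differed by -0.17 and -0.47. Themis, a regulator of receptor signalling in thymocytes, differed by -0.49 and -0.25, and the adaptor Lat by -0.23 and -0.14. All 4 genes past the limit were below 0 in both pairs, as were 42.2% of all genes, and with arrays centred Skap1 was above 0 with LPS (0.04). Among the dim genes, the phosphatase family member Ubash3a differed by -0.48 and -0.30, and Trat1, an adaptor that associates with the T cell receptor, by -0.03 and 0.00.

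All 8 surface receptors past the limit were below 0 with LPS, and all but Thy1 with LPS and XCL1, where 60.1% and 56.8% of all genes were, and none reached 1.5-fold. With arrays centred, 4 of the 8 (Cd2, Cd6, Cd8b1 and Thy1) were above 0 with LPS. Cd28, the co-stimulatory receptor for B7 proteins, had signals of 5.35 in KO and 5.77 in WT with LPS, and 5.43 in KO and 5.99 in WT with LPS and XCL1, differences of -0.42 and -0.56. Cd4, the co-receptor for MHC class II, differed by -0.45 and -0.26, the inhibitory receptor Cd5 by -0.40 and -0.30, and the co-stimulatory receptor Icos by -0.39 and -0.24. The adhesion receptor Cd2 differed by -0.05 and -0.47, and Cd6, a receptor related to Cd5, by -0.09 and -0.20. Thy1, a surface glycoprotein of T cells and other cells, was close to 0 in both pairs, at -0.04 and 0.03. The dim gene Ctla4, an inhibitory receptor, differed by -0.26 and -0.16.

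The genotypes were close for the CD8 co-receptor. Cd8b1, its beta chain and a marker of CD8 T cells, had signals of 8.25 in KO and 8.26 in WT with LPS, and 8.12 in KO and 8.30 in WT with LPS and XCL1. Cd8a, the alpha chain, which cDC1 of lymphoid tissue express as a homodimer, differed by 0.02 and -0.03. The differences of Cd8b1 were -0.01 and -0.18, beside -0.45 and -0.26 for Cd4.

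Lef1 and Bcl11b, transcription factors of T cells, were below 0, and the receptor gene Il7r was above. Lef1, which acts with Tcf7 in T cell development, had signals of 6.93 in KO and 7.49 in WT with LPS, and 6.93 in KO and 7.24 in WT with LPS and XCL1, differences of -0.56 and -0.31. Bcl11b, a factor of T cell commitment, differed by -0.09 and -0.32. Il7r, the receptor chain for the survival cytokine IL-7, had signals of 10.3 in KO and 9.67 in WT with LPS, and 10.2 in KO and 9.87 in WT with LPS and XCL1. Both KO values lay above both WT values. Il7r was 1.54-fold higher in KO with LPS and within 1.5-fold with XCL1 added (0.34). It was the 1 T cell gene above 0 in both pairs. With arrays centred, Thy1 was above 0 in both pairs as well (0.06 and 0.13).

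NK receptors and cytotoxic genes split into genes above and below 0. Klrk1, which encodes the activating receptor NKG2D, had signals of 9.57 in KO and 9.22 in WT with LPS, and 9.55 in KO and 9.20 in WT with LPS and XCL1. Both KO values lay above both WT values, and the difference was 0.35 in each pair. Ncr1, the activating receptor NKp46 that marks NK cells, had the opposite sign, with differences of -0.14 and -0.18. Klrb1c, which encodes the marker NK1.1 of C57BL/6 mice, and Klre1, a lectin-like receptor, were below the limit on all 4 arrays, with signals of 4.11 to 4.51 and 4.93 to 5.05.

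The granule genes had differences of both signs. Gzmb, the protease granzyme B, had signals of 7.50 in KO and 7.26 in WT with LPS, and 7.71 in KO and 7.47 in WT with LPS and XCL1, differences of 0.24 and 0.25. Prf1, which encodes the pore-forming perforin, differed by -0.37 and -0.25, with signals of 6.91 in KO and 7.28 in WT with LPS, and 7.12 in KO and 7.37 in WT with LPS and XCL1. Nkg7, a granule membrane protein, differed by -0.19 and -0.30. Gzma, the protease granzyme A, changed sign between the pairs, at -0.23 and 0.10.

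The T-box factors of NK cells had opposite signs. Tbx21, which encodes T-bet, had signals of 7.74 in KO and 7.38 in WT with LPS, and 7.78 in KO and 7.39 in WT with LPS and XCL1, differences of 0.36 and 0.39. Eomes, the related factor of NK and memory CD8 T cells, had signals of 5.31 in KO and 5.73 in WT with LPS, and 5.33 in KO and 5.71 in WT with LPS and XCL1, differences of -0.42 and -0.38. Both KO signals of Eomes lay below the limit, and with signals raised to the limit its differences were -0.30 and -0.28. Il2rb, the receptor chain that binds IL-2 and IL-15, differed by -0.27 and -0.20.

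**Figure D2:**
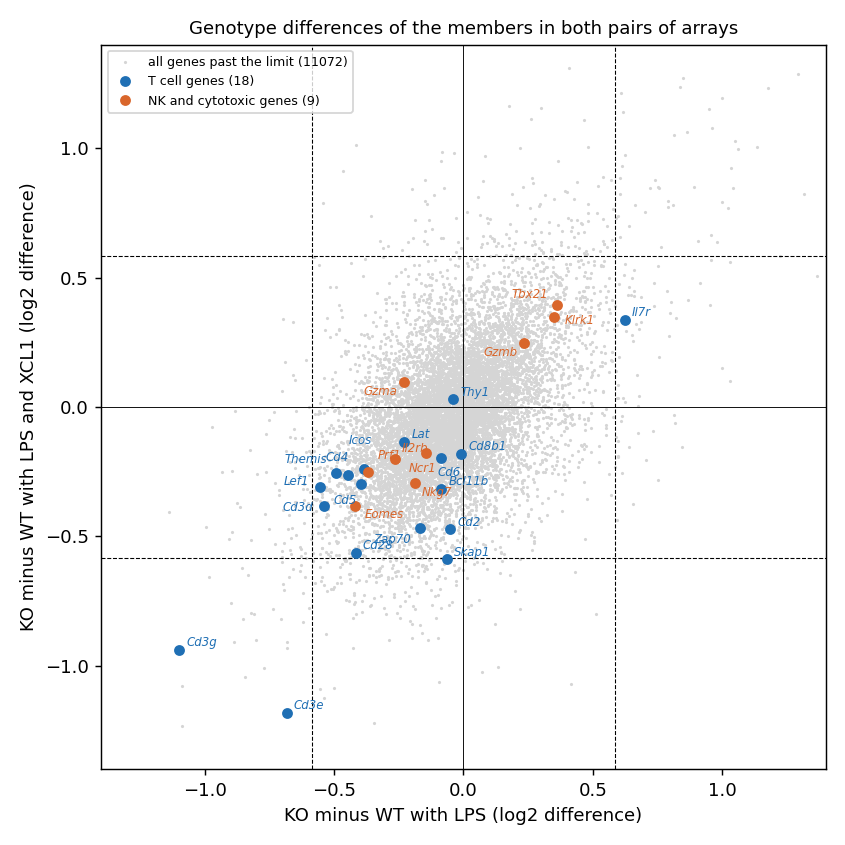
The horizontal axis is KO minus WT with LPS and the vertical axis KO minus WT with LPS and XCL1, both as log2 differences. Blue points are the 18 T cell genes, orange points the 9 NK and cytotoxic genes and grey points all 11072 genes past the limit, of which 7 lie outside the axes, and dashed lines mark 1.5-fold. Cd3g and Cd3e lie past both lower lines, and Il7r, Tbx21, Klrk1 and Gzmb lie right of and above 0.

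Side by side, T cell genes had a median difference of -0.31 in the LPS pair and -0.30 in the pair with XCL1, and NK and cytotoxic genes -0.19 and -0.18. Medians of all 11072 genes were -0.05 and -0.04. T cell genes thus lay 0.12 below NK and cytotoxic genes in each pair. Below 0 in both pairs were 16 of 18 T cell genes (88.9%), 5 of 9 NK and cytotoxic genes (55.6%) and 42.2% of all genes. Thy1 was the T cell gene and Gzma the cytotoxic gene that changed sign between the pairs. With arrays centred on their gene medians, which added 0.10 to each genotype difference, 11 of 18 T cell genes were below 0 in both pairs, against 23.7% of all genes. Skap1, Cd2, Cd6, Cd8b1, Thy1 and Bcl11b then lay above 0 with LPS, whereas no NK or cytotoxic gene changed side.

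The spread between probe sets of the same gene gave a scale for these differences. Over 441 genes with several probe sets it was 0.213 (SD) in the LPS pair and 0.229 in the pair with XCL1, and it does not include differences between mice or preparations. Below 0 by more than this SD in both pairs were Cd3d, Cd3e, Cd3g, Themis, Cd4, Cd5, Cd28, Icos and Lef1, 9 of 18 T cell genes, and Prf1 and Eomes, 2 of 9 NK and cytotoxic genes. Of all genes, 9.46% were. Above 0 by more than the SD in both pairs were Il7r, Klrk1, Gzmb and Tbx21, and 5.33% of all genes. With arrays centred, Cd3d, Cd3e, Cd3g, Cd28 and Eomes stayed beyond it below 0, against 3.45% of all genes, and the same 4 genes stayed beyond it above 0, against 11.4%. Cd3d and Eomes reached the signal limit on WT arrays alone, which favoured values below 0. Without centring but with signals raised to the limit, Cd3d differed by -0.26 and 0.00, and Eomes by -0.30 and -0.28.

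A further split set apart T cell genes that NK cells also express. Of the 9 members placed in that shared list (Cd247, Lck, Zap70, Lat, Skap1, Cd2, Thy1, Tcf7 and Il7r), 6 were past the limit, with medians of -0.06 with LPS and -0.30 with LPS and XCL1. The other 12 T cell genes had medians of -0.43 and -0.30. All 12 were below 0 in both pairs, from -1.10 to -0.01 with LPS and from -1.18 to -0.18 with LPS and XCL1. Of all genes, 42.2% were below 0 in both pairs. With arrays centred, Cd6 (0.02), Cd8b1 (0.09) and Bcl11b (0.02) of the 12 lay above 0 with LPS. Across the 18 T cell genes, Pearson's r between the genotype differences of the 2 pairs was 0.73, and it was 0.92 across the 9 NK and cytotoxic genes and 0.53 across all genes. Spearman's rho was 0.52 across the T cell genes, 0.87 across the NK and cytotoxic genes and 0.48 across all genes. The pairs share no array, but all genes of a pair share its 2 arrays, and each gene has the same probes in both.

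The other comparison set XCL1 and LPS against LPS alone, in WT cells and again in KO cells, deficient in the receptor of XCL1. It uses the same 4 arrays as the genotype comparison, so each array enters both. No T cell, NK or cytotoxic gene past the limit differed 1.5-fold with XCL1 in WT cells, where 0.334% of all genes were lower and 0.226% higher. None did in KO cells either, where 0.542% were lower and 0.470% higher. In WT the medians were 0.06 for T cell genes, 0.01 for NK and cytotoxic genes and 0.03 for all genes. In KO they were -0.06 for T cell genes, 0.04 for NK and cytotoxic genes and 0.04 for all genes. The mean of the T cell genes in WT was on the other side of 0 from their median, at -0.0012.

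Single members differed by up to 0.42 with XCL1. The lowest values were -0.35 for Thy1 in WT, with signals of 5.93 with XCL1 and 6.29 without, and -0.42 for Cd3e in KO, with signals of 7.13 with XCL1 and 7.55 without. Thy1 differed by -0.28 in KO and thus had the same sign in both genotypes. Ncr1 was below 0 in both as well, at -0.20 in WT and -0.24 in KO, and Gzmb was above 0 in both, at 0.21 and 0.22. Between the genotypes 10 of 18 T cell genes and 3 of 9 NK and cytotoxic genes had opposite signs, against 43.6% of all genes. The highest values were 0.28 for Bcl11b in WT and 0.39 for Gzma in KO, where Gzma had signals of 6.52 with XCL1 and 6.13 without. Cd3e differed by 0.08 in WT and Gzma by 0.06. All 4 granule genes were above 0 in WT, from 0.04 for Nkg7 to 0.21 for Gzmb, and 3 of 4 in KO, where 58.3% and 59.6% of all genes were. With arrays centred, which took 0.07 from each XCL1 difference, the medians of both lists in WT were below 0, at -0.01 for T cell genes and -0.06 for NK and cytotoxic genes, and Gzma and Nkg7 were below 0 in WT as well.

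**Figure D3:**
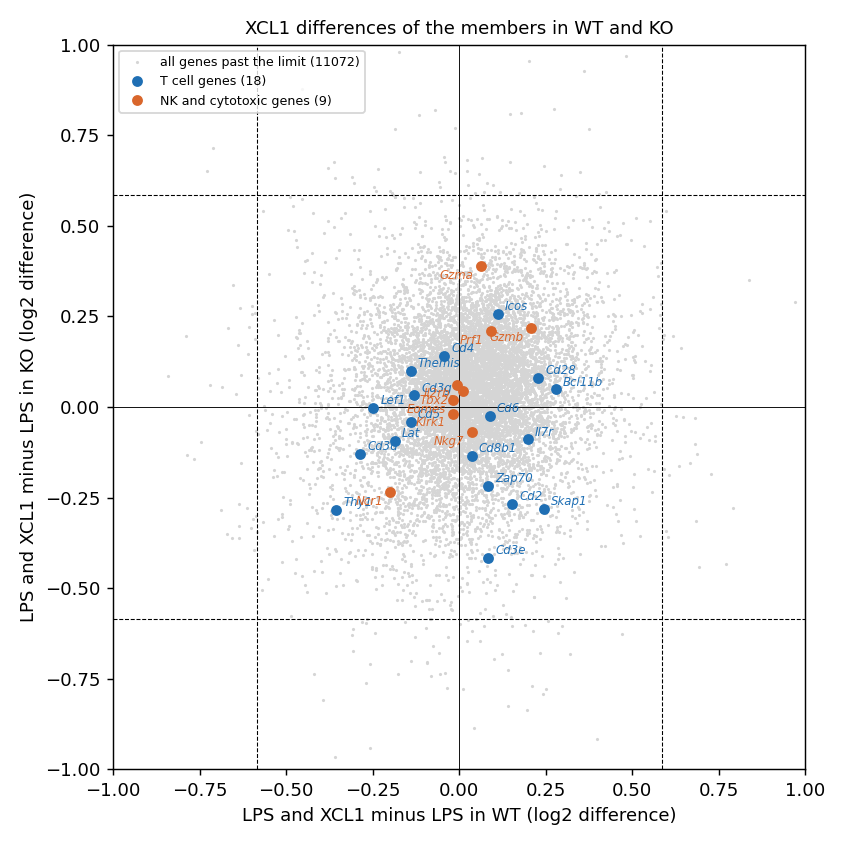
The horizontal axis is LPS and XCL1 minus LPS in WT and the vertical axis the same difference in KO, both on the log2 scale. Blue points are 18 T cell genes, orange points 9 NK and cytotoxic genes and grey points all 11072 genes, of which 8 lie outside the axes, and all blue and orange points lie inside the dashed lines at 1.5-fold.

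Further T and NK cell genes, which are not among the 35, were read from 2 lists. Of 30 other T cell genes, 24 were past the limit, with medians of -0.22 with LPS and -0.25 with LPS and XCL1. Slamf6 and Cd96, receptors of T and NK cells, were lower with LPS (-0.70 and -0.63) and close to the threshold with XCL1 added (-0.58 and -0.57). Cd27, a co-stimulatory receptor, had signals of 5.76 in KO and 6.28 in WT with LPS, and 5.16 in KO and 6.58 in WT with LPS and XCL1, differences of -0.52 and -1.42. It was also the 1 gene of this list that was lower with XCL1 in KO (-0.60), while it differed by 0.30 in WT. Gata3, a factor of helper T cells, differed by -0.46 and -0.48. It reached the limit on WT arrays alone, with signals of 5.31 and 5.29 in KO, which favoured a KO signal below the WT signal. No gene of this list was higher. Second, dimmer probe sets gave 0.01 and 0.00 for Slamf6 and -0.14 and -0.04 for Gata3.

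Of 24 other NK cell genes, 17 were past the limit, with medians of -0.14 in both pairs. Below 0 were 11 of 17 with LPS and 12 with LPS and XCL1, where 60.1% and 56.8% of all genes were. Ifng, which encodes the interferon made by activated NK and T cells, had signals of 9.21 in KO and 8.26 in WT with LPS, and 9.20 in KO and 8.05 in WT with LPS and XCL1. It was the 1 gene of the list that was higher, in both pairs (0.95 and 1.15), where 1.01% and 1.69% of all genes were. Klrg1, an inhibitory receptor, and Klrb1f, a lectin-like receptor, were lower with LPS (-0.90 and -0.59) and within 1.5-fold with XCL1 added (-0.25 and -0.51). With LPS, 1.00% of all genes were lower. Klrd1, the CD94 chain of NK receptors, differed by -0.43 and -0.34, and the lymphocyte protease gene Ctsw by -0.33 and -0.46. Above 0 in both pairs were 4 genes, Ifng, Gzmk (0.35 and 0.33), Cst7 (0.13 and 0.29) and Fasl (0.003 and 0.23). Xcl1 itself differed by -0.32 and -0.23.

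B cell markers also had smaller signals in KO, in both pairs. The mean log2 signal of the 18 T cell genes was 6.63 in KO and 6.91 in WT with LPS, and 6.55 in KO and 6.91 in WT with LPS and XCL1. That of 9 NK and cytotoxic genes was 7.13 in KO and 7.20 in WT with LPS, and 7.20 in KO and 7.22 in WT with LPS and XCL1. Of 13 B cell markers, 11 were measured, all past the limit, with means of 7.54 in KO and 8.02 in WT with LPS, and 7.53 in KO and 8.08 in WT with LPS and XCL1. All 11 were below 0 in both pairs, with medians of -0.44 and -0.51, and also with arrays centred. Of all genes, 42.2% were below 0 in both pairs, and 23.7% with arrays centred. The largest values were those of Fcer2a, which encodes CD23, at -1.09 and -1.08.

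Plasmacytoid dendritic cell markers had medians of -0.43 and -0.48 over 8 genes, of which 6 and 5 were below 0, where 60.1% and 56.8% of all genes were. Among the 8 markers Siglech differed by -0.52 and -0.57 and Klk1 by 0.55 and 0.47. The medians of 11 cDC1 markers were -0.13 and -0.18. Those of 10 macrophage and monocyte markers were 0.00 and 0.09, and those of 9 neutrophil markers 0.21 and 0.28. Of 5 erythroid genes measured, Slc4a1 was higher in both pairs, with signals of 7.62 in KO and 6.12 in WT with LPS, and 7.67 in KO and 6.32 in WT with LPS and XCL1, as was Car1 (1.29 and 1.29). Rhag passed the limit through the KO arrays alone and differed by 1.06 and 1.00, and the dim genes Epor and Klf1 differed by 0.07 and 0.37 with LPS and by 0.48 and 0.13 with LPS and XCL1. The part of B cell, plasmacytoid or other cells in the T cell differences was not tested.

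**Figure D4:**
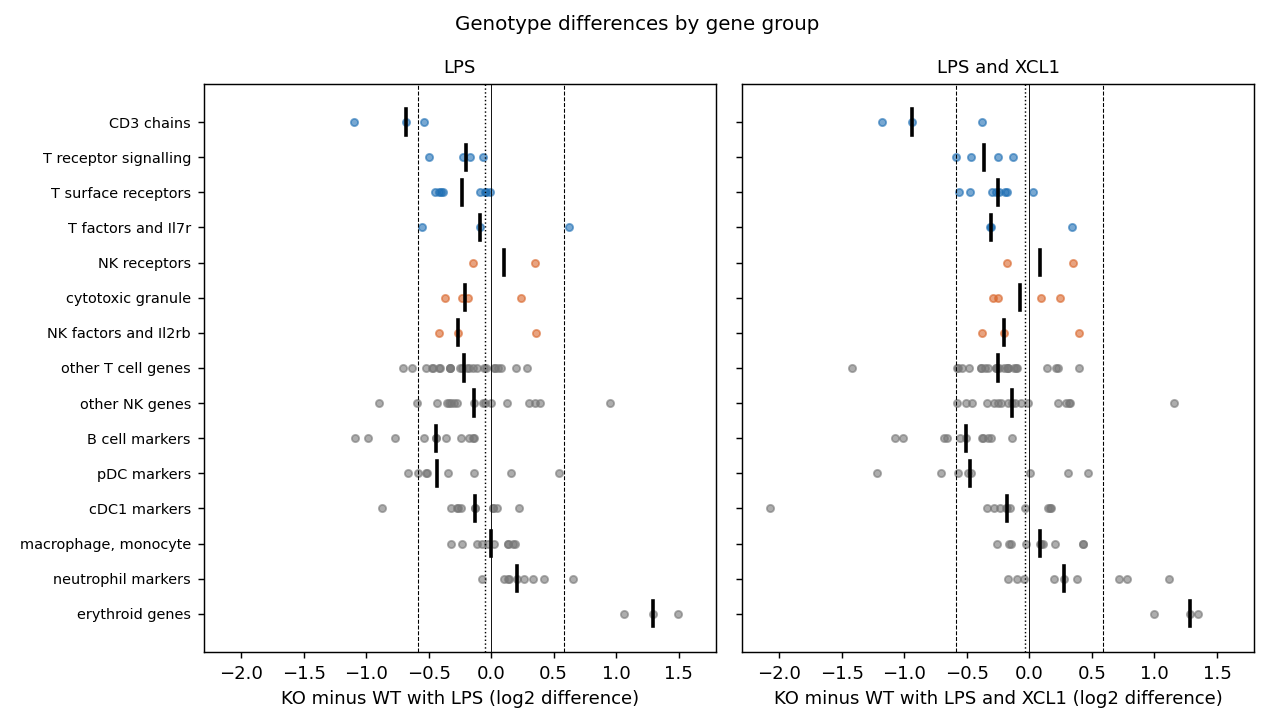
Points are genes past the signal limit, grouped by role or by cell type, and the horizontal axis is KO minus WT with LPS (left) or with LPS and XCL1 (right) as a log2 difference. Thick black bars are group medians, the dotted line is the median of all genes and dashed lines mark 1.5-fold. CD3 chains have the lowest medians, -0.68 and -0.94, and NK receptors lie on both sides of 0.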

How the data were processed

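Total RNA was labelled with biotin as sense cDNA and read on MoGene-2_0-st arrays, 1 per group. Per the labels, the deposited values are log2 gene-level RMA signals. The sources used here do not give the software or the build. RMA corrects background, equalises arrays and summarises probes, so a shift of most genes in 1 direction cannot be seen.

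Probe sets were named through the platform's annotation. Of 41345 probe sets, 23521 had 1 symbol, 1814 several and 16010 were unnamed here. RefSeq (GRCm38.p6) held 23328 of the 23521 and changed 0 symbols. Probe sets with several symbols were not used, nor 4840 for predicted genes, small RNAs, antigen receptor segments or olfactory receptors. Where a gene had more than 1 probe set, that with the highest mean was taken.

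Differences are between single arrays, with no test. An additive model of genotype and treatment was not fitted. Members, lists and the motifs were chosen with earlier results of these data known. Members that differed 1.5-fold in any comparison are given on every array, and other members where the text turns on them. Other lists name up to 4 genes by the smaller of the 2 genotype differences, plus Ifng, Xcl1, Xcr1 and Cd8a. Klrg1, Klrc2, Irf8, Flt3, Batf3, Itgae, Epor, Klf1 and the sex-linked genes were named after their values were seen. So were Fyn, Il2ra, Ms4a4b, Rhoh, Gzmk, Cst7 and Fasl. Counting was tested on simulated arrays. Alternatives were a 2-fold threshold, no limit or a limit at the 75th percentile (6.91), cyclic loess (limma 3.58.1, span 0.7, 3 iterations), centring, mean of probe sets, signals raised to the limit, other genes kept, and T cell genes not shared with NK cells.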

Additional observations from a re-analysis of the deposited data

Results flagged for a closer look

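Skap1 had XCL1 differences of opposite sign in the genotypes, each beyond the SD between probe sets of a gene (0.174 in WT and 0.210 in KO). It was 0.25 in WT, with signals of 6.05 with XCL1 and 5.80 without, and -0.28 in KO, with signals of 5.46 with XCL1 and 5.74 without. Of all genes, 28.4% lay beyond this SD in WT and 26.2% in KO, and 43.6% had opposite signs. Each of these shares is for 1 condition alone. The share of all genes that met them together, as Skap1 did, was not counted. Whether Skap1 stands out among all genes was therefore not tested. The SD covers differences between probe sets only. The difference between the effects rests on 1 array per group and was not tested.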

How the results depend on the processing

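T cell medians stayed below 0 and below the NK and cytotoxic medians in both genotype pairs under every alternative that could move them. A 2-fold threshold and other genes kept do not enter these medians. With 1 probe set per measured member, the mean of probe sets could not differ. Centring cannot move the gap between the lists. With LPS the T cell median of -0.31 was -0.42 with the stricter limit, -0.24 with cyclic loess, -0.20 with centring, -0.24 with signals raised to the limit and -0.43 without genes shared with NK cells. With LPS and XCL1 it was -0.20 with centring. NK and cytotoxic medians were -0.0856 with LPS and -0.0785 with LPS and XCL1 with centring. The gap between the lists with LPS (-0.12) was -0.27 with the stricter limit, -0.0552 with signals raised and -0.24 without shared genes. At 2-fold, 1 T cell gene was lower in each pair and 0 were higher. With centring 1 was lower with LPS, since Cd3e stood at -0.58, and without shared genes 0 were higher. XCL1 medians were near 0 and changed sign. In WT the T cell median was -0.0424 with no limit, -0.0034 with the stricter limit, -0.0077 with centring and -0.0034 without shared genes, and the NK and cytotoxic median -0.0550 with centring. The gap in WT (0.05) was -0.0543 with no limit, and -0.0153 with the stricter limit and without shared genes. In KO the T cell median was -0.13 with centring and 0.0151 without shared genes, and the gap of -0.11 was -0.0283 without them. With predicted genes and small RNAs kept, 0.753% of genes were higher with XCL1 in KO. With 1 array per group no replicate could be left out, and the number of arrays limits all values.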

Other observations

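T cell receptor segments were read by 19 distinct probe sets with 1 symbol, 9 of them past the limit, and most symbols recur on several probe sets, so which segment each reads is uncertain. Their medians in KO minus WT were -0.10 with LPS and -0.21 with LPS and XCL1, with 5 and 8 of 9 below 0, against 60.1% and 56.8% of all genes. The brightest, annotated to Trav9d-3, had signals of 9.06 in KO and 9.62 in WT with LPS, and 8.60 in KO and 9.68 in WT with LPS and XCL1, differences of -0.56 and -1.08. With XCL1 it differed by 0.06 in WT and -0.45 in KO. The 3 other probe sets past the limit that are annotated to Trav9d-3 differed by 0.03, 0.03 and -0.10 between the genotypes with LPS. Trbv13-2 had signals of 4.68 in KO and 5.41 in WT with LPS, and 5.40 in KO and 5.70 in WT with LPS and XCL1. Only the last of these signals reached the limit, which favoured a KO signal below the WT signal in that pair. The genotype differences of Trbv13-2 were -0.73 and -0.29, and its XCL1 differences 0.28 in WT and 0.73 in KO. The values of -0.73 and 0.73 each compare signals that lay below the limit. Ly49 receptors are a family of inhibitory and activating receptors of the mouse. Of 7 Ly49 probe sets, 2 were past the limit, those of Klra17 and Klra2, and neither differed 1.5-fold between the genotypes. Which cells these 2 signals come from was not tested.

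Klrc2, an activating NK receptor chain, was below the limit on all 4 arrays. Its signal was 3.94 with XCL1 and 4.86 without in WT, and 3.56 with XCL1 and 4.35 without in KO, differences of -0.92 and -0.79.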
